A study of Mus musculus with 18 samples.

Results

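Myc and 37 genes around it were followed through the UV-driven stages of squamous cell carcinoma in mouse skin. The 38 genes were taken by symbol from a fixed list, which was chosen with earlier results of these data known. All were found among the 14521 named genes of the deposited table. They comprised the Myc network genes Myc, Max and Mxd1 and 35 genes of ribosome biogenesis.

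The animals were 6 female SKH-1E mice, an outbred hairless strain prone to skin tumours under ultraviolet light. All of them, littermates without a transgene, received chronic low-dose UV from solar simulators, so that no unirradiated skin entered the comparisons. Each mouse (numbers 2, 3, 7, 8, 9 and 10) contributed 1 piece of irradiated skin without a lesion (CHR), 1 papilloma (PAP), which is a benign epidermal growth, and 1 squamous cell carcinoma (SCC). This gave 18 libraries with n = 6 per group and between 15386103 and 20977417 recovered reads per library. The 3 samples of a mouse share the animal.

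Myc is a transcription factor that binds the E-box CACGTG together with its partner Max, whereas Mxd1 also pairs with Max and opposes Myc on the same sites. Ribosome biogenesis takes place largely in the nucleolus, where RNA polymerase I makes the long precursor of ribosomal RNA, small nucleolar ribonucleoproteins (snoRNPs) modify it, and processing factors cut and fold it into the small and large subunits. Genes for these steps are among the best known targets of Myc, and their output sets the capacity of a growing cell for protein synthesis.

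The deposited values are variance-stabilised read counts. Levels below are read counts recovered from these values and divided by the size factor of the library (normalised read counts), and fold changes are on the log2(deposited value + 1) scale, which understates the change of weakly expressed genes. Adjusted p-values come from limma (Benjamini-Hochberg, 14521 genes), and a gene was called where its adjusted p was under 0.05. In bulk tissue, fewer cells of a type and less RNA per cell cannot be told apart.

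The SCC of mouse 9 stood apart and is named wherever it bears on a result. Of the 38 members, 32 had their highest value of the 6 SCC in that library, against 22.6% of all genes, and 29 had their highest value of all 18 libraries there.

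The first question was how the Myc network itself changed. Myc (chr15:61985391-61990374, plus strand, GRCm38) ranged in CHR from 624 to 825 normalised read counts with a median of 667. In PAP it ranged from 1264 to 1852 with a median of 1614, and in SCC from 965 to 1944 with a median of 1158. Every PAP and every SCC library lay above every CHR library.

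Means were 683 ± 73.3 in CHR, 1608 ± 202 in PAP and 1335 ± 409 in SCC (SD, n = 6 each). Myc rose in PAP vs CHR by 1.15 ± 0.15 on the log2 scale (SE, adjusted p = 8.38e-06, limma) and in SCC vs CHR by 0.85 ± 0.15 (adjusted p = 0.000345). Both comparisons share the CHR libraries, and in both Myc was higher in 6 of 6 mice. Between SCC and PAP the difference was -0.29 ± 0.15 (95% interval -0.61 to 0.03, adjusted p = 0.264), and the 2 groups overlapped. The highest SCC values were those of mice 9 and 10, at 1944 and 1749, and the other 4 lay at 965 to 1195. When libraries were scaled to 20 keratinocyte genes instead of the authors' size factors, the change of Myc was 0.24 in PAP vs CHR (adjusted p = 0.297) and 0.48 in SCC vs CHR (adjusted p = 0.08), and the difference between SCC and PAP changed sign to 0.23.

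Max, the obligate partner, showed no such step. It ranged from 990 to 1150 in CHR, from 828 to 1063 in PAP and from 897 to 1187 in SCC. The groups overlapped in all comparisons, and the differences were -0.16 ± 0.09 in PAP vs CHR (adjusted p = 0.15) and -0.07 ± 0.09 in SCC vs CHR (adjusted p = 0.573). Under keratinocyte scaling Max was called lower in both, by -1.06 and -0.46 (adjusted p = 6.87e-06 and 0.0216).

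Mxd1, the antagonist that is typical of differentiating keratinocytes, varied most in PAP. Its values ran from 2070 to 3408 in CHR, from 1628 to 6673 in PAP and from 1954 to 4081 in SCC. The difference was 0.42 ± 0.26 in PAP vs CHR (adjusted p = 0.192) and 0.11 ± 0.26 in SCC vs CHR (adjusted p = 0.765), and keratinocyte scaling turned these to -0.53 and -0.29. Without mouse 3, whose papilloma held the lowest PAP value, the difference in PAP vs CHR was 0.65 with an adjusted p of 0.0358.

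Per kilobase of the annotated transcript, mean levels of the 3 genes in CHR were 500 normalised read counts per kb for Myc, 550 for Max and 591 for Mxd1. In PAP the same measure was 1178 for Myc, 490 for Max and 859 for Mxd1, and in SCC it was 978, 524 and 653. By this measure the mean of Myc went from below that of Max to above it in both lesions. The levels rest on annotated transcripts of 1365 bases for Myc and 1942 for Max, whose exons together cover 2717 and 3598.

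**Figure D1:**
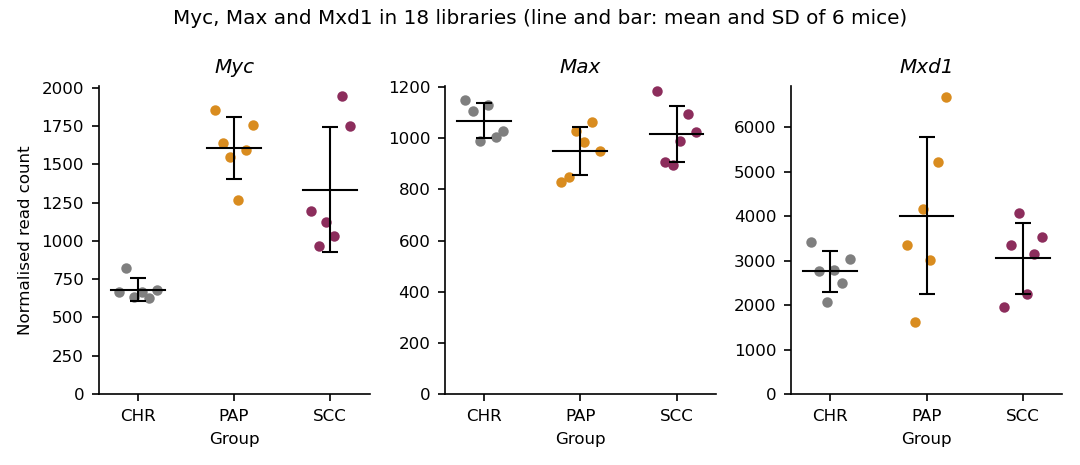
Normalised read counts (vertical axes, from 0) of Myc, Max and Mxd1 in the 6 CHR, 6 PAP and 6 SCC libraries; points are libraries, the line and bar are the mean and SD. All PAP and SCC points for Myc lie above the highest CHR point of 825, whereas the groups overlap for Max and Mxd1 in the authors' scaling.

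Among the 13 other genes of the wider network, 3 rose and 3 fell in PAP vs CHR, where 22.8% of all genes rose and 28.7% fell. These counts were near the shares of all genes, and the median log2 change of the 13 was -0.01. Mxd3, another Max-binding antagonist, went from 85.2 ± 16.7 to 192 ± 39.6 normalised read counts (SD, n = 6), a log2 change of 0.77 (adjusted p = 0.000505). Mlxipl, the glucose-responsive factor ChREBP, fell from 110 ± 24.8 to 6.66 ± 5.58, a log2 change of -1.61 (adjusted p = 6.93e-08), and its relative Mlxip from 1340 ± 353 to 791 ± 136, a log2 change of -0.69 (adjusted p = 0.00507). Mycn, the neural paralogue of Myc, was weakly counted, with 10.97 ± 6.70 in CHR, 10.01 ± 4.29 in PAP and 21.0 ± 21.6 in SCC. Mycl, a further paralogue, had 559 ± 114, 598 ± 350 and 330 ± 287, and neither paralogue passed the test in any comparison of stages. Of the 13 genes, 0 rose and 3 fell in SCC vs CHR, where 15.1% of all genes rose and 21.4% fell.

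The second question was whether genes of ribosome biogenesis were higher in the lesions. In PAP vs CHR, 34 of the 38 members rose and 0 fell, where 22.8% of all genes tested rose and 28.7% fell, but 0 rose and 3 fell under keratinocyte scaling, where 1.98% and 73.4% of all genes did. The members' median log2 change was 0.76, beside 0.00 over all genes. The 4 that did not pass were Max, Mxd1, Wdr43 and Ddx18. In 32 of the 38, PAP was higher in 6 of 6 mice, and in 30 every PAP library exceeded every CHR library, which held for 14.4% of all genes.

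Keratinocyte scaling moved the median of all genes to -0.78 and that of the members to -0.14, so that the members stood 0.64 above all genes there and 0.75 above them in the main scaling. In both, 37 of 38 members lay above the median of all genes, the exception being Max. Library-total and quantile scaling gave 34 and 35 higher and 0 lower, and quantile scaling moved the median of all genes to 0.16.

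Dkc1 on chromosome X (chrX:75095854-75109777, plus strand), the pseudouridine synthase of the box H/ACA snoRNP, showed the largest increase among the called members. It ranged from 638 to 940 normalised read counts in CHR (median 764), from 1497 to 2342 in PAP (median 1808) and from 1191 to 2872 in SCC (median 1561). CHR overlapped with neither lesion. The log2 change was 1.16 ± 0.18 in PAP vs CHR (adjusted p = 3.64e-05) and 1.02 ± 0.18 in SCC vs CHR (adjusted p = 0.000304).

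Nop2 (chr6:125131909-125144753, plus strand), a methyltransferase of the large subunit ribosomal RNA and a classical proliferation antigen, had the lowest adjusted p of the members in PAP vs CHR. It ranged from 995 to 1116 in CHR, from 2089 to 2888 in PAP and from 1563 to 3156 in SCC. The change was 1.15 ± 0.14 in PAP vs CHR (adjusted p = 2.76e-06) and 0.86 ± 0.14 in SCC vs CHR (adjusted p = 0.000135).

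Nop56 (chr2:130274430-130279313) and Nop58 (chr1:59684971-59719044), both on the plus strand, encode the paired core proteins of the box C/D snoRNP, which directs 2'-O-methylation. Nop56 ranged from 917 to 1153 in CHR, from 1802 to 3085 in PAP and from 1457 to 3293 in SCC. Nop58 ranged from 1444 to 1878 in CHR, from 3142 to 4445 in PAP and from 2316 to 5892 in SCC. Neither gene overlapped between CHR and a lesion. In PAP vs CHR the change was 1.12 ± 0.17 for Nop56 (adjusted p = 3.39e-05) and 1.11 ± 0.18 for Nop58 (adjusted p = 5.6e-05).

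Fbl, the methyltransferase of the same particle, was counted far below its partners. Per kilobase it held 46.2 normalised read counts in CHR, where Nop56 held 552 and Nop58 held 952. These levels rest on annotated transcripts of 1197 bases for Fbl, 1877 for Nop56 and 1713 for Nop58. The exons of the 3 genes together cover 4209, 4099 and 10758 bases. The cause of the low count was not tested. In the authors' scaling Fbl still differed between the groups. Fbl rose from 55.3 ± 8.75 to 92.4 ± 16.3 in PAP (log2 change 0.41, adjusted p = 0.00103) and to 94.8 ± 8.88 in SCC (0.44, adjusted p = 0.00113).

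The other 2 box H/ACA proteins rose as well, Gar1 by 0.77 and Nhp2 by 0.72 in PAP vs CHR. All 3 RNA polymerase I genes rose in PAP in the authors' scaling, where 22.8% of all genes rose. Polr1b, the second largest subunit, went from 839 ± 81.8 to 1672 ± 278 (log2 change 0.92, adjusted p = 7.24e-05), and Polr1e by 0.78. Polr1a, the catalytic subunit, rose by 0.65 (adjusted p = 0.00022), but its PAP and CHR values overlapped because the CHR library of mouse 3, at 2069, lay above the lowest PAP library, at 1946.

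Of the 9 small subunit processing factors, 8 rose in PAP in the authors' scaling, where 22.8% of all genes rose. Their changes ran from 0.39 (Utp20) to 0.83 (Rrp9, a U3 snoRNP protein). Heatr1, Nop14, Pno1, Tsr1, Ltv1 and Rrp12 lay between them. Tsr1 shares 32.3% of its exon length with Srr on the opposite strand, and without strand information reads from the 2 genes cannot be told apart there. Rrp12 and Utp20 made the smallest steps, and Rrp12 lost its call without mouse 2, 7, 8 or 10 (adjusted p = 0.0566 to 0.122).

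Wdr43 (chr17:71615895-71659031, plus strand), a small subunit processome protein, did not overlap between PAP and CHR, with 1724 to 2157 in CHR and 3420 to 5022 in PAP. Its change of 1.03 ± 0.45 missed the threshold (adjusted p = 0.0642) in the fit that pools the spread of all 3 groups. Its SCC values were 2763 to 4018 in 5 mice and 36952 in mouse 9. When only that library was left out, a choice made after seeing the data, the adjusted p in PAP vs CHR was 5.39e-06.

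Of the 11 large subunit processing factors, 10 rose in PAP in the authors' scaling, where 22.8% of all genes rose. Under keratinocyte scaling 0 of the 38 members, of any role, were called higher. Bop1, Pes1 and Wdr12, the 3 proteins of the PeBoW complex that matures the large subunit RNA, rose by 0.59, 0.51 and 0.46. Nop16, Rrs1 and Ebna1bp2 rose by 0.83, 0.78 and 0.75, and Wdr74, Ftsj3 and Noc3l by 0.51 to 0.61. Ddx18, an RNA helicase, was weakly counted, with 53.4 ± 6.45 in CHR, 68.2 ± 16.9 in PAP and 71.4 ± 18.6 in SCC, and its change of 0.17 had an adjusted p of 0.221. Quantile scaling gave Ddx18 a change of 0.69 (adjusted p = 0.00103).

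The 6 genes of nucleolar organisation and regulation all rose in PAP in the authors' scaling, by 0.74 to 1.01, where 22.8% of all genes rose. Mybbp1a, a Myb-binding nucleolar protein, went from 2393 ± 181 to 4911 ± 633 normalised read counts (SD, n = 6, adjusted p = 4.42e-05). Ncl (nucleolin) went from 3920 ± 110 to 7113 ± 1615, and Nolc1, a snoRNP chaperone, from 1079 ± 48.7 to 2169 ± 560. Npm1 (nucleophosmin) went from 386 ± 45.0 to 697 ± 102, a level that is uncertain because the gene has many processed copies in the genome.

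**Figure D2:**
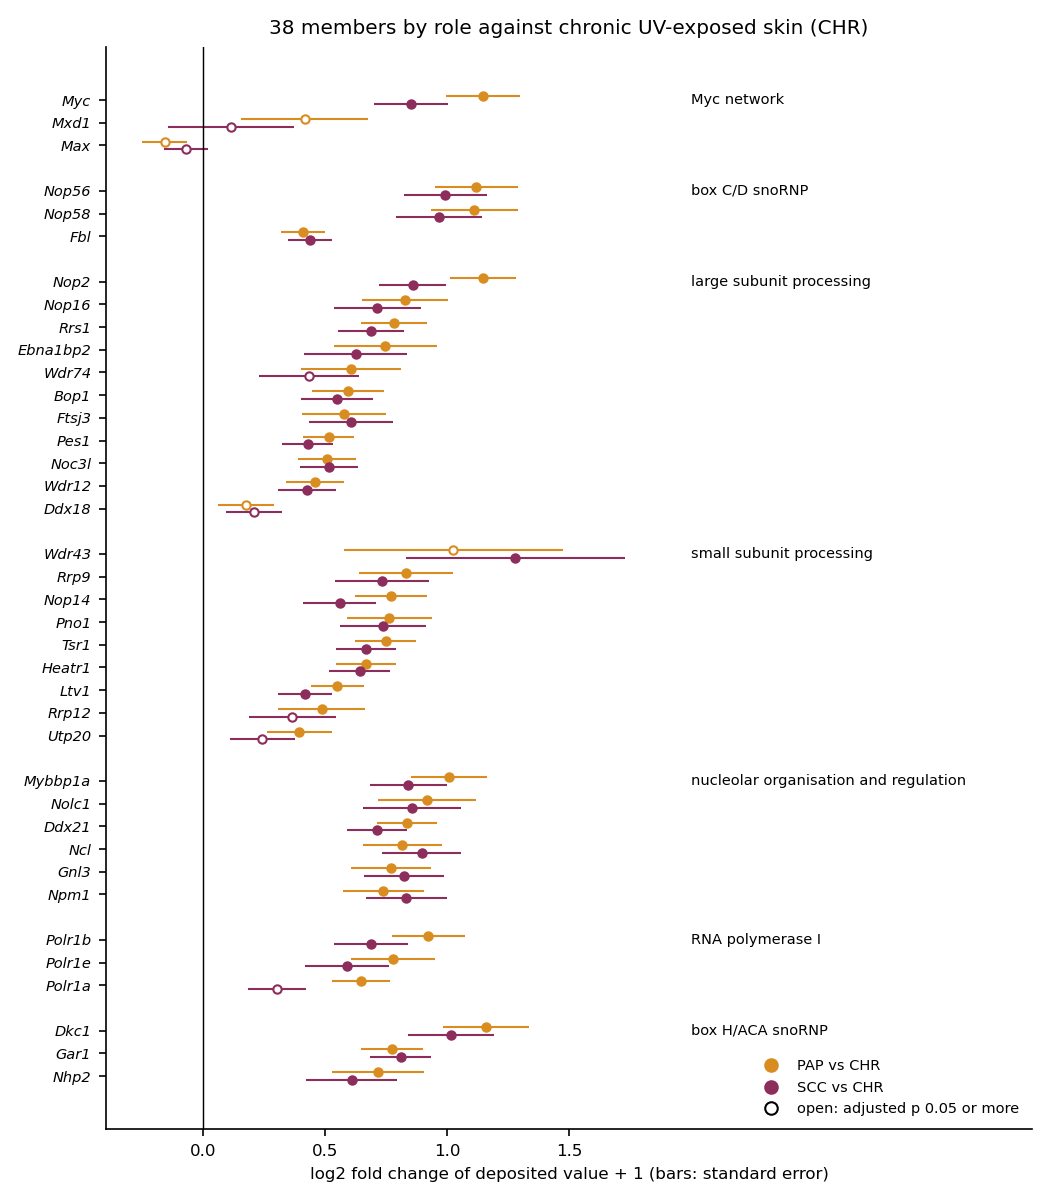
Log2 fold changes of the deposited values + 1 (horizontal axis) with their standard errors for the 38 members, by role, in PAP vs CHR and SCC vs CHR; filled points have an adjusted p under 0.05. The called members lie between 0.39 and 1.28, all to the right of 0 in the authors' scaling, whereas under keratinocyte scaling 0 members were called higher for PAP against CHR and 2 for SCC against CHR.

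Sequences around the start of the members are shown because the E-box is the site that Myc and Max bind. Promoter windows of RefSeq (GRCm38.p6), with 250 bases before and 50 after the annotated start, were matched to 32 of the 38 members. The letters CACGTG, which read alike on both strands, occurred in windows of 9 of these 32 (28.1%), compared with 1198 of 10745 tested genes with a window (11.1%) and 7.15% of all 32851 windows. The 9 were Ltv1, Max, Mybbp1a, Nop2, Pes1, Pno1, Tsr1, Utp20 and Wdr43. In 7 of them the motif lay after the start, in Nop2 before it (-60 to -55) and in Max across it. The median log2 change in PAP vs CHR was 0.75 for the 9 and 0.77 for the 23 without the motif.

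Windows of 30 bases follow for the 6 members with the motif that had the largest change in PAP vs CHR, 5' to 3' on the strand of the gene, with the E-box in capitals. The Nop2 window lies before the annotated start and the other 5 after it.
Nop2, chr6:125131811-125131840, plus strand: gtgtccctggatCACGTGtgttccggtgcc
Wdr43, chr17:71616220-71616249, plus strand: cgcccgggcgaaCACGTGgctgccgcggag
Mybbp1a, chr11:72441347-72441376, plus strand: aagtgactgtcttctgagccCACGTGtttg
Pno1, chr11:17211540-17211569, minus strand: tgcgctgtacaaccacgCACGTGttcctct
Tsr1, chr11:74898092-74898121, plus strand: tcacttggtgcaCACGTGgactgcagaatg
Ltv1, chr10:13193092-13193121, minus strand: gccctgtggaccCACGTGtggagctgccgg

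Nop2 was the only one of them with the motif before the start, and its 250 bases before the start (chr6:125131633-125131882, plus strand) were as follows.
Nop2 promoter: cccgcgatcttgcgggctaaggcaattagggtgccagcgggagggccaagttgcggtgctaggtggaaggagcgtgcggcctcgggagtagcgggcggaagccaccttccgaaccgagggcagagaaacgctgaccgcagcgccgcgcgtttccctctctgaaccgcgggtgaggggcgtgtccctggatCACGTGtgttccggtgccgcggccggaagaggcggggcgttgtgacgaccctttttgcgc

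A match of letters is a description and says nothing of binding, and no binding was measured.

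In SCC vs CHR, 31 of the 38 members rose and 0 fell, where 15.1% of all genes rose and 21.4% fell, but 2 rose and 1 fell under keratinocyte scaling, where 3.49% and 35.3% of all genes did. The median log2 change was 0.65, beside -0.02 over all genes. In 26 members every SCC library exceeded every CHR library, which held for 8.57% of all genes. The 7 that did not pass were Max, Mxd1, Polr1a, Ddx18, Wdr74, Utp20 and Rrp12. When the SCC of mouse 9 was left out, 30 rose and the median was 0.53.

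Wdr43 had the largest value in this comparison, a log2 change of 1.28 ± 0.45 (adjusted p = 0.0329), which fell to 0.70 (adjusted p = 0.000839) without the SCC of mouse 9. Dkc1 rose by 1.02, Nop56 by 0.99 ± 0.17 (adjusted p = 0.000264) and Nop58 by 0.97 ± 0.18 (adjusted p = 0.000455). Ncl (chr1:86344719-86359400, minus strand), which binds precursor ribosomal RNA, ranged from 3813 to 4085 in CHR, from 4894 to 9705 in PAP and from 6012 to 11710 in SCC. No lesion library of Ncl lay within the CHR range, and its change in SCC vs CHR was 0.90 ± 0.16 (adjusted p = 0.000418).

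By role, the calls in SCC vs CHR were 2 of 3 RNA polymerase I genes, 3 of 3 genes of each snoRNP, 7 of 9 small subunit factors, 9 of 11 large subunit factors and 6 of 6 nucleolar genes, where 15.1% of all genes were called higher. Polr1a differed by 0.30 (adjusted p = 0.0559), and was higher in 6 of 6 mice without passing the test. All 35 biogenesis members had a log2 change above 0 in the authors' scaling.

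Between SCC and PAP, 0 of 38 members were called higher and 0 lower by limma, where 4.99% of all genes were higher and 0.592% lower, and 2 members had an unadjusted p under 0.05. The share over all genes was unstable here, since 0 genes were called by limma-voom (2087 higher at an unadjusted p under 0.05), with the compared groups alone (1963), or without mouse 3 (1961), 7 (1575) or 8 (1650), whereas 1695 were called higher without mouse 10, against 724. The members' median was -0.10, and 10 of 38 were above 0. The lowest p belonged to Polr1a, with a difference of -0.35 ± 0.12 (adjusted p = 0.0885), followed by Nop2 at -0.29 ± 0.14 (adjusted p = 0.217) and Myc. Without the SCC of mouse 9, Nop2 was called lower in SCC, at -0.42 (adjusted p = 0.0384), Polr1a stood at -0.41 (adjusted p = 0.0516), and the members' median was -0.24. Keratinocyte scaling turned the sign of Polr1a to 0.19 and that of Nop2 to 0.25.

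The spread within groups changed as well. The coefficient of variation over the 6 mice had a median over the 38 members of 8.51% in CHR, 14.8% in PAP and 30.1% in SCC, beside 15.3%, 28.6% and 28.7% over all genes. Members thus varied less than the median gene in CHR and PAP and about as much in SCC, where the library of mouse 9 supplied the highest value of 32 of them. The genes compared were not matched for expression level, so the lower spread cannot be taken as particular to the members.

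**Figure D3:**
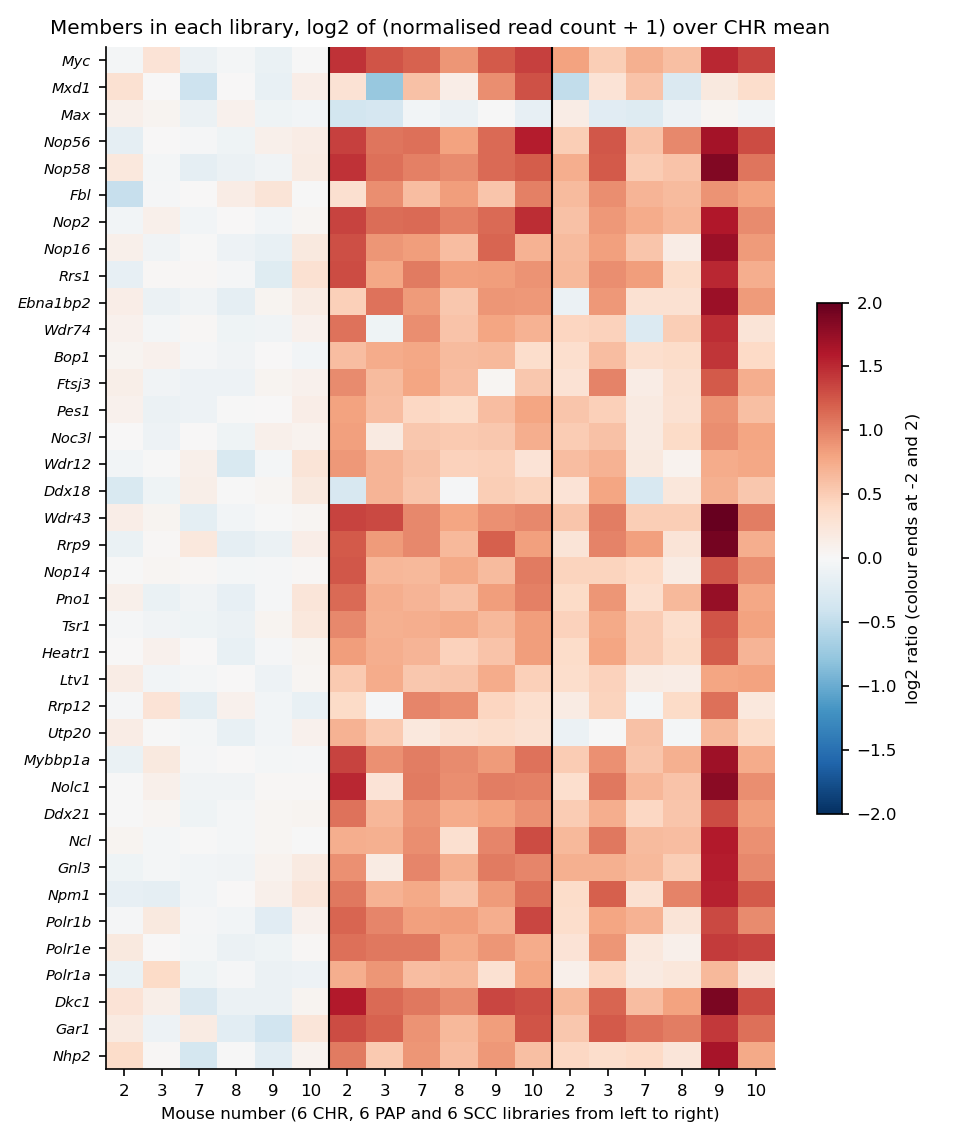
Each member (rows, by role) in each of the 18 libraries (columns), as the log2 ratio of its normalised read count + 1 to the CHR mean; red is higher, blue lower, and colours end at -2 and 2. The PAP columns are red in nearly all rows, and the SCC column of mouse 9 is the darkest of the SCC for 32 of 38 members in the authors' scaling.

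Summed over the 35 ribosome biogenesis members, CHR libraries held 36953 to 40594 normalised read counts, PAP libraries 61874 to 79174 and SCC libraries 52390 to 134819. Without mouse 9 the highest SCC sum was 68226, in mouse 3. Wdr43 alone made up 27.4% of the sum in the SCC of mouse 9, and without Wdr43 the sum of the other 34 members was 97867 there and at most 64239 in the other SCC. All lesions lay above all CHR libraries, and PAP and SCC overlapped.

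The third question was how members followed Myc from library to library within a stage. With the group in the model, a slope was fitted for each gene on the log2 level of Myc, so that a slope of 1 means proportional change. All 37 members had a positive slope, with a median of 0.57 beside -0.02 over all genes. By limma, 0 of 37 passed the adjusted threshold, as did 0% of all genes. At an unadjusted p under 0.05 there were 26 members, beside 8.81% of all genes with a positive slope at that level. These members rise and fall together, so they are not independent observations.

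Nop14, a small subunit factor, had the lowest p, with a slope of 0.81 ± 0.17 (adjusted p = 0.134). Nhp2 followed with 0.95 ± 0.23 and Dkc1 with 0.90 ± 0.22 (adjusted p = 0.141 for both). The slope was 0.33 ± 0.45 for Mxd1 and 0.10 ± 0.15 for Max (adjusted p = 0.719 and 0.762). Wdr43, with its outlying SCC of mouse 9, had the highest slope, 2.20 ± 0.58 (adjusted p = 0.141). With the mouse as a replicate block, which suits samples paired by animal, the members' median slope was 0.51, 34 of 37 were positive, 0 passed the adjusted threshold and 11 had an unadjusted p under 0.05, beside 4.21% of all genes upwards in that fit.

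The slopes depended on single mice. Without the SCC of mouse 9, the median slope was 0.31, 34 of 37 were positive and 5 had an unadjusted p under 0.05, beside 3.78% of all genes upwards. Without the 3 libraries of mouse 3, 15 members passed the adjusted threshold, where 1.7% of all genes did, and the median was 0.85. The SCC of mouse 3 combined the lowest Myc of the 6 SCC, at 965, with the second highest sum of biogenesis members. Under keratinocyte scaling 33 members passed, as did 30.8% of all genes, but the median slope of all genes moved to 0.45 there. Myc and the members of a library share its scaling factor, in the main scaling as well.

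Correlations within each group were computed over the 6 mice, with exact permutation p-values adjusted over 14520 genes per group. In CHR, the median Pearson r of the 37 members with Myc was 0.12, and 2 members, Nop2 (r = 0.89, exact p = 0.0111) and Polr1b (r = 0.85, exact p = 0.0236), had an exact p under 0.05, beside 2.93% of all genes with a positive r at that level. In PAP the median was 0.54, and 8 members reached this level, beside 2.83% of all genes. In SCC it was 0.66, and 5 members did, beside 5.14%. With 6 mice the smallest exact p is 0.00139, so that at least 404 of the 14520 genes would have to reach it for any to pass adjustment, and the adjusted values therefore say little. No member passed, and the lowest adjusted p was 0.874 (CHR), 0.904 (PAP) and 0.462 (SCC) by the exact permutation test.

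In PAP the 8 members were Heatr1 (r = 0.92, rho = 0.89, exact p = 0.00833 and 0.0333), Gar1 (0.91 and 0.94), Pes1 (0.90 and 0.99), Pno1 (0.88 and 0.94), Nop56 (0.87 and 0.77), Npm1 (0.87 and 0.77), Nop58 (0.86 and 0.94) and Dkc1 (0.84 and 0.83). Of these, 5 also had an exact p under 0.05 for Spearman's rho. When the papillomas of mice 8 and 2, farthest from the median Myc level, were left out, the median r over 37 members was 0.19, and Pes1 stood at 0.93. These r rest on the 4 papillomas left.

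In SCC the 5 members were Nop14 (r = 0.94, rho = 0.66), Nhp2 (0.88 and 0.94), Gnl3 (0.88 and 0.83), Nop2 (0.77 and 0.49) and Nop16 (0.77 and 0.66), with exact p-values for r from 0.00833 to 0.0431. Nhp2 alone of the 37 had an exact p under 0.05 for rho (0.0167). Without the SCC of mice 9 and 10, which held the most Myc, the median r became -0.64, so the positive relation in SCC rests on those libraries. This r comes from the 4 libraries left, whose Myc ran only from 965 to 1195, so its size says little. In CHR, leaving out mice 3 and 9 moved the median r from 0.12 to 0.45, again with 4 libraries left.

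As a description over all 18 libraries with the group means removed, the r with Myc had a median of 0.60 over the 37 members (range 0.03 to 0.83) beside -0.02 over all genes. Nop14 was at the top with 0.83, followed by Nop2 with 0.78, Nhp2 and Dkc1 with 0.75 and 0.74, and Fbl was at the bottom with 0.03. The summed biogenesis members had an r of 0.72 with Myc, with or without Wdr43 in the sum. The SCC of mouse 9, with the highest Myc and the highest sum of the 18 libraries, is part of every r in this paragraph. These r were not computed without it. The members also moved with each other, with a median r of 0.64 over 595 pairs of the 35, of which 584 were positive. Ddx21, an RNA helicase of the nucleolus, followed the mean of the other 34 most closely (r = 0.96), Nop58 nearly as closely (0.95), and Fbl least (0.14).

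**Figure D4:**
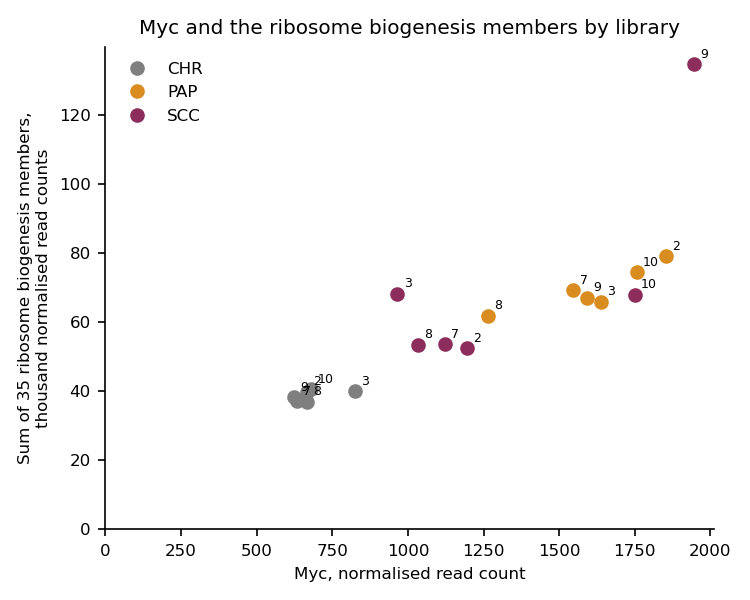
Normalised read count of Myc (horizontal axis) against the summed normalised read counts of the 35 ribosome biogenesis members (vertical axis, in units of 1000), 1 point per library with its mouse number. CHR forms a group at the lower left. The SCC of mice 2, 3, 7 and 8, with Myc at 965 to 1195, lie left of all PAP, whose lowest Myc is 1264. In mice 2, 7 and 8 the SCC sum, at 52390 to 53708, is also below the lowest PAP sum of 61874. The SCC of mouse 10 lies within the PAP ranges of Myc and of the sum. The SCC of mouse 9 stands alone at 1944 and 134819 counts, of which Wdr43 makes up 27.4%.

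The rest of the pathway moved in the same direction as the members in PAP vs CHR, with counts that hold in the authors' scaling and were not run under keratinocyte scaling by list. Over all genes 22.8% rose and 28.7% fell in that comparison. Of 42 other small subunit processome genes, 35 rose and 0 fell, with a median of 0.59. Cirh1a (Utp4) went from 764 ± 52.4 to 2109 ± 651 normalised read counts (log2 change 1.32), Wdr36 rose by 0.95 and Emg1 by 0.91. Of 40 other large subunit assembly genes, 36 rose and 0 fell, with a median of 0.56. Ppan, Ddx27 and Brix1 rose by 0.98, 0.91 and 0.83.

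Of 18 other RNA polymerase I genes and cofactors, 10 rose and 0 fell (median 0.35), among them Polr1d (1.21), Taf1d (0.72) and Tcof1 (0.63), the treacle gene. Of 11 other snoRNP genes, 7 rose and 0 fell (median 0.42), with Ruvbl2, Naf1 and Znhit3 at 1.08, 0.68 and 0.53. RNA polymerase III, which makes 5S ribosomal RNA and transfer RNA, gave 12 higher and 1 lower of 22 (median 0.33). Gtf3c1, a subunit of its factor TFIIIC, rose by 0.59 (adjusted p = 0.0113). The alternative subunits of the polymerase moved apart, since Polr3g rose by 0.67 (adjusted p = 0.041) and Polr3gl fell by 0.68 on the log2 scale (adjusted p = 3.32e-05). In SCC vs CHR the counts were 29 of 42, 28 of 40, 6 of 18, 6 of 11 and 6 of 22 higher, in the order given, with 0 lower but for 1 RNA polymerase III gene, where 15.1% of all genes were higher. The 6 of 22 for RNA polymerase III stood nearest to that share.

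Of 36 Myc targets that act outside the nucleolus, 26 rose and 1 fell in PAP vs CHR (median 0.70), and 25 rose and 1 fell in SCC vs CHR (median 0.58). Over all genes, 22.8% rose and 28.7% fell in PAP vs CHR, and 15.1% and 21.4% in SCC vs CHR. The counts hold in the authors' scaling. They were not run under keratinocyte scaling, where 0 of the 38 members were called higher in PAP vs CHR. Odc1, the rate-limiting enzyme of polyamine synthesis, went from 107 ± 59.8 in CHR to 654 ± 205 in PAP and 580 ± 415 in SCC, a log2 change of 2.07 in PAP (adjusted p = 0.000101). Shmt2, a mitochondrial enzyme of one-carbon metabolism, rose by 1.67 and Ldha (lactate dehydrogenase) by 1.30 in PAP.

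Marker genes of several cell types differed between the groups as well, against the shares of all genes that rose (22.8% in PAP, 15.1% in SCC) or fell (28.7% and 21.4%) relative to CHR. Of 20 proliferation genes, 20 rose from CHR to PAP and 19 from CHR to SCC, and their summed level ran from 14462 to 19353 normalised read counts (CHR), from 40933 to 60472 (PAP) and from 28637 to 52579 (SCC). With the group means removed, the r of the summed biogenesis members with the proliferation sum was 0.74, and that of Myc with it was 0.38. Both values include the SCC of mouse 9. Adding the mean proliferation level to the model of the Myc slope gave a median slope of 0.31 over the members, with 10 of 37 at an unadjusted p under 0.05, beside 4.13% of all genes upwards.

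Keratinocyte genes rose in 14 of 20 and fell in 1 in PAP vs CHR, with sums of 348630 to 538934 in CHR, 809412 to 1313450 in PAP and 317147 to 907559 in SCC. Skeletal muscle genes, whose sum was 407864 to 611880 in CHR, fell in 18 of 18 in PAP, where the sum was 388 to 30895, and in 16 of 18 in SCC, where it was 567 to 207079. Dermal fibroblast genes fell in 8 of 12 in PAP. In SCC 2 of 12 fell, which is below the share of all genes, and their sum ranged from 25838 to 570623 beside 158872 to 348886 in CHR. The counts that fell were, for adipocyte genes, 9 of 10 in both lesions, for sebaceous gland genes 9 of 9 in both, and for T cell genes 10 of 11 in PAP and 8 of 11 in SCC. Of 12 myeloid genes, 9 fell and 2 rose in PAP, and 7 fell and 2 rose in SCC. Of 8 endothelial genes, 5 fell and 1 rose in PAP, whereas 1 fell and 2 rose in SCC (median log2 change 0.02). No gene of these lists was at 0 in all libraries of a group. With the group means removed, the r of Myc was -0.56 with the dermal fibroblast sum and -0.29 with the muscle sum. It was 0.21 with the myeloid and 0.04 with the keratinocyte sum. The summed biogenesis members had -0.34, -0.02, 0.43 and -0.13 in that order, with the SCC of mouse 9 included. The SCC of mouse 10 held the lowest muscle and fibroblast sums and the highest keratinocyte sum of the SCC. The part of these levels in the relation with Myc was not tested. The part of these marker differences in the rise of the members was not tested.

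In the SCC of mouse 9 the summed myeloid level was 157864, where the other SCC had 21916 to 82689, and the proliferation sum was 52579, the highest of the SCC. The keratinocyte sum of that library was 494253. Their part in the high biogenesis level of that library was not tested.

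Wdr43 in the SCC of mouse 9 exceeded the median of the other SCC by a factor of 12.7, the eleventh highest ratio among 12407 genes with a median of at least 50. Its neighbours on chromosome 17 were therefore examined, a choice made after seeing the data. Of the 32 other tested protein-coding genes within 4 Mb, 9 exceeded the highest of the other 5 SCC. They lay in 1 stretch around Wdr43 between Tgif1 (chr17:70844205-70853546) and Alk (chr17:71868972-72604627). Ndc80, a kinetochore gene next to Wdr43, had 4101 normalised read counts against 308 to 387 in the other SCC. Lpin2 had 17292 against 1852 to 3299, Smchd1 18595 against 2930 to 4093, Myl12b 4805 against 489 to 697 and Myl12a 13406 against 2382 to 2844. Myl12a and Myl12b are close paralogues, and their separate levels are uncertain.

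Within the stretch, Myom1, a muscle gene, and Emilin2 lay inside the range of the other SCC. Ypel5, Lbh and Lclat1, the next tested genes after Alk, had ratios of 0.63, 1.28 and 0.88, so that the ratios fell between Alk and Ypel5. On the other side the fall was less clear. Dlgap1, the next tested gene beyond Tgif1, had a ratio of 2.47 but lay inside the range of the other SCC (493 against 22.9 to 560), and Zbtb14 beyond it had 0.84. No DNA measurement of the region was used here, and the cause of these values in 1 library was not tested.

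**Figure D5:**
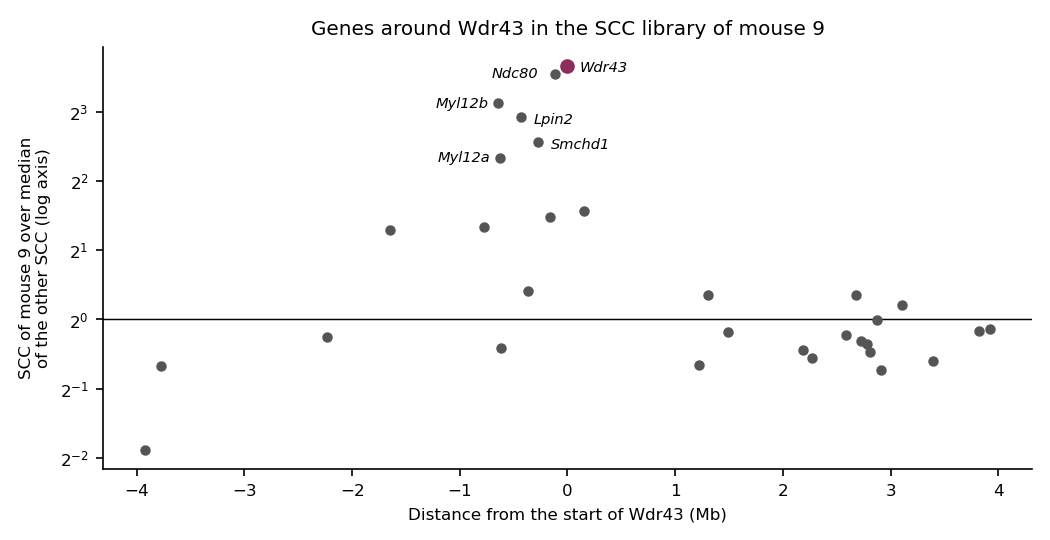
Ratio of the SCC of mouse 9 to the median of the other 5 SCC (vertical log axis) for tested protein-coding genes within 4 Mb of Wdr43 with a median of at least 50, by distance from its start in Mb. Wdr43 (larger point) and Ndc80 are highest with ratios of 12.7 and 11.8, and genes over 1 Mb downstream lie between 0.604 and 1.28.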

How the data were processed

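RNA of 18 skin samples was sequenced. The authors aligned paired-end reads to mm10 (GRCm38) with MOSAIK and counted them per gene with HTSeq. The authors then divided the counts by scaling factors and stabilised their variance with the transformation of DESeq2, and a median scaling between batches is mentioned. The deposited values are therefore a score on a linear, transformed scale, rounded to whole numbers, in which 0 reads read 39. Annotation, versions and strandedness are not given in the sources used here.

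The transformation was inverted with a zero level of 39.13, which gave whole reads for 99.0% of values and size factors of 0.835 to 1.18. Depth limits precision mostly for weakly counted genes such as Fbl and Ddx18. Of 14542 entries, 21 without a symbol (at most 0.236% of a library) were left out. Columns were matched to samples by title.

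Tests used limma 3.58.1 in R 4.3.3, with log2(value + 1), all 18 libraries and a coefficient for each group. The Myc slope added the log2 level of Myc. Correlations used exact permutation over the 6 mice of a group. The scripts were tested on simulated data. There limma called 22% of 1.5-fold and 69% of 2-fold changes in PAP vs CHR, with 5.21% of the calls false. It called 23.5% of the genes given a Myc slope of 1. An absence of calls therefore does not show an absence of change. Samples of the 3 groups are paired because they come from the same mice, and deviations of same-mouse libraries from their group means correlated at -0.24 to 0.51 over genes. Coordinates are those of GENCODE M21 and promoters those of RefSeq, and lengths are those of the longest principal transcript.

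Members and gene lists were chosen with earlier results of these data known. Described in full were Myc, Max and Mxd1, the 5 called members with the largest change in each comparison (the 3 with the lowest p where none passed) and, of each other pathway list, the 3 with the largest called change in PAP vs CHR. Mycn, Mycl and the remaining members were named as further examples. Alternatives were a pseudocount of 39, recovered counts, limma-voom, library-total, quantile and keratinocyte scaling, a replicate block, array weights, a mean count filter of 50, the compared groups alone, lesions alone, a proliferation covariate and leaving out each mouse.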

Additional observations from a re-analysis of the deposited data

Results flagged for a closer look

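Within each group of 6, a member's highest or lowest library was marked where its gap to the next library, relative to the range of the group, exceeded Dixon's 95% critical value. Of 114 groups tested, 14 were marked, and chance marks about 1 in 20. In CHR, mouse 3 stood apart for Myc, at 825 normalised read counts, and for Polr1a, at 2069.

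The other 12 were all in the SCC of mouse 9. Among small subunit factors that library held 1316 for Rrp9, 2231 for Rrp12, 2086 for Pno1 and 36952 for Wdr43. Among large subunit factors it held 3156 for Nop2, 1530 for Nop16, 1594 for Wdr74 and 2759 for Bop1. Nolc1 was at 3783, Nhp2 at 2346, Gnl3 at 4329 and Mybbp1a at 7763. These 12 flags share 1 library and are not independent of each other.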

How the results depend on the processing

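Keratinocyte scaling changed most. It gave 0 members higher and 3 lower in PAP vs CHR, 1 higher in SCC vs PAP, 2 higher and 1 lower in SCC vs CHR, and 33 that followed Myc upwards. It reversed Mxd1 in PAP vs CHR (-0.53) and SCC vs CHR (-0.29), and in SCC vs PAP it reversed Myc (0.23), Mxd1 (0.24), Polr1a (0.19) and Nop2 (0.25). These scalings differ in the median of all genes by construction, and which is nearer to the amount per cell was not tested. Leaving out each mouse gave 32 to 35 members higher in PAP vs CHR, 27 to 31 higher in SCC vs CHR, 0 to 2 lower in SCC vs PAP (2 without mouse 9, Polr1a and Nop2) and 0 to 15 that followed Myc upwards (15 without mouse 3). Mxd1 in SCC vs CHR ranged from -0.054 without mouse 7 to 0.29 without mouse 2. The slope of Mxd1 on Myc was -0.12 with the replicate block and -0.17 with the proliferation covariate. The replicate block left the counts of called members at 34 higher in PAP vs CHR, 31 higher in SCC vs CHR and 0 in SCC vs PAP. Wdr43 lost its call in SCC vs CHR with the compared groups alone (adjusted p = 0.0699, limma) and without mouse 3, 7 or 10 (0.0502 to 0.0715). Ebna1bp2 lost it with the compared groups alone (0.0503), without the SCC of mouse 9 (0.051), and without mouse 3, 8, 9 or 10 (0.0517 to 0.0979). Polr1e lost it without mouse 3 or 9, Ftsj3 without mouse 3, and Nhp2 and Wdr12 without mouse 9. In PAP vs CHR, Wdr74 lost its call without mouse 2 or 8, Utp20 without mouse 3, and Rrp12 as given above. Leaving out the SCC of mouse 9, or the CHR of mouse 3 for the slope, was chosen after seeing the data. Weakly counted members (Fbl, Ddx18) are measured least precisely.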
